A study of Mus musculus with 6 samples.

Results

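The genes described here are 42 genes of the G2 phase and of mitosis, out of 55291 genes counted. They were chosen by name, as mitotic cyclins and kinases, genes of the spindle checkpoint, kinetochore genes, kinesins and condensins, with Mki67, Top2a and Foxm1. All 42 passed the filter on low counts that left 18621 genes for testing. RNA was sequenced from subcutaneous CT2A tumours, CT2A being a line of mouse glioblastoma cells, with 3 libraries of tumours grown in mice lacking Siglece (KO) and 3 of tumours grown in wild-type mice (WT). Every library of both groups comes from this 1 line, with 5000 to 20000 cells sampled for each, and no sort is named. The labels give no age, sex or strain of the mice, no description of the deleted part of Siglece, and no statement that each library came from its own animal, so p-values measure the spread between these libraries, which may be partly technical. Siglece itself, which encodes an inhibitory sialic-acid receptor of myeloid cells, had 0, 8 and 0 counts in KO replicates 1, 2 and 3, against 74, 99 and 64 counts in WT replicates 1, 2 and 3.

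Cells build up the products of these genes between DNA replication and division. Cyclin B and CDK1 drive entry into mitosis, the Aurora and Polo-like kinases build the spindle, kinetochores attach chromosomes to it, the spindle checkpoint delays separation until every chromosome is attached, and the anaphase-promoting complex (APC/C) then marks cyclin B and securin for destruction. Many of these genes are switched together: in resting cells the DREAM complex represses them, and in cycling cells its MuvB core joins B-MYB (Mybl2) and then FOXM1 to activate them. MuvB binds a promoter element called the cell cycle genes homology region (CHR), often with CCAAT boxes, bound by NF-Y, a short way upstream. In tumours the summed level of such genes is widely used as a measure of proliferation. In bulk RNA, fewer dividing cells and less RNA of these genes per cell cannot be told apart.

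Promoter windows of RefSeq (build GRCm38.p6, 250 bases before to 50 bases after the transcription start) were found for 35 of the 42 genes, and 6 are shown because they belong to genes at both ends of the range described below. Hmmr and Bub1 had the most negative log2 fold changes, Bub3 and Cdc25b the ones nearest to 0, and Cdk1 and Cdc20 encode the central mitotic kinase and an activator of the APC/C. Capitals mark CHR letters (TTTGAA, or the variant TTCGAA) and CCAAT boxes on either strand, so that ATTGG is a CCAAT box and TTCAAA a CHR on the opposite strand.
Hmmr (chr11:40733388-40733687, minus strand): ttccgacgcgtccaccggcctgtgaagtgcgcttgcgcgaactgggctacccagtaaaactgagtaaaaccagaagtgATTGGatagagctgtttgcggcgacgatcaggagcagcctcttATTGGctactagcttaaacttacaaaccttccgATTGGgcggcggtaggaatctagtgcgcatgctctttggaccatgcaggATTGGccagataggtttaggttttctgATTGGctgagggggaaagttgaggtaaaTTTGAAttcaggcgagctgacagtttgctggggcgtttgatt
Bub1 (chr2:127831810-127832109, minus strand): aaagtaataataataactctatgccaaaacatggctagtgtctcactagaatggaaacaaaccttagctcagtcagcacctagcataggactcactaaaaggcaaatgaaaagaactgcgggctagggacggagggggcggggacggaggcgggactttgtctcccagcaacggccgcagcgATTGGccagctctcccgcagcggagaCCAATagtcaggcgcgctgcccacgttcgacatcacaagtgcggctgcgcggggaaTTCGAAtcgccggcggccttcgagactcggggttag
Cdk1 (chr10:69352863-69353162, minus strand): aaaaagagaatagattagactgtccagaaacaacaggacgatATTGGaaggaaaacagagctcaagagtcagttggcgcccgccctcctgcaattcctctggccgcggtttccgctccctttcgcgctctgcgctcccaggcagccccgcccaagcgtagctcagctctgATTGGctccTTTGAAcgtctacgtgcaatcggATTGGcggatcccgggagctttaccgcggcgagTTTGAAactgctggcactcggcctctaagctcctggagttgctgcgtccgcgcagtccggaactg
Cdc20 (chr4:118437294-118437593, minus strand): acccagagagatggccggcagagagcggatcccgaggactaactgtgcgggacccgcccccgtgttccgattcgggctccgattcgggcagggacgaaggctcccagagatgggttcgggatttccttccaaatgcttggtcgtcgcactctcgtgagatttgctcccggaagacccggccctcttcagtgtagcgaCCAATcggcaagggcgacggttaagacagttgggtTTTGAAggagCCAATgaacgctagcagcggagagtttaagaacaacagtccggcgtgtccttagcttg
Bub3 (chr7:131560120-131560419, plus strand): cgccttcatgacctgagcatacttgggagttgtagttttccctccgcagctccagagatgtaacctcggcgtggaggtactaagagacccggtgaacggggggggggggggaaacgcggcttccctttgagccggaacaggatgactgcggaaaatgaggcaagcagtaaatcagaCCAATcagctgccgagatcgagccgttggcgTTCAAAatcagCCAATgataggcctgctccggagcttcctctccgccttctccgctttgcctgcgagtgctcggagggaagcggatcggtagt
Cdc25b (chr2:131186698-131186997, plus strand): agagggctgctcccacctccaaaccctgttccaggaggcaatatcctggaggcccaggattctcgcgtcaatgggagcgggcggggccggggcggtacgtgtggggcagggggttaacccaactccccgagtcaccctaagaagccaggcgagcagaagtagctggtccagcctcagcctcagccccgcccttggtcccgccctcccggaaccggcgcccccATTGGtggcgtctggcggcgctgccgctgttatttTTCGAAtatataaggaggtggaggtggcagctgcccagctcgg
Each of the 6 windows held CHR or variant letters within 50 bases of the start site and a CCAAT box upstream of them. Bub1 and Cdc25b held the variant letters in place of TTTGAA, and Cdk1 held TTTGAA at 2 places.

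The CHR letters TTTGAA, searched on both strands, were present in 25 of the 35 genes with a window (71.4%), against 5466 of all 27025 genes with a window (20.2%). In 23 of the 35 genes a copy lay within 50 bases of the start site in any of the windows of the gene. Counted by window and not by gene, a copy lay there in 1624 of all 32851 windows (4.94%), so these shares differ in unit. CCAAT was present in 26 of the 35 genes (74.3%), against 41.1% of all genes, and both motifs in 22 (62.9%), against 7.97% of all genes. Letters of an E2F site, searched as TTCCCGC or TTGGCGC on both strands, were present in 6 of the 35 genes (17.1%), against 7.79% of all genes. A list of other mitosis genes, described below, had 66 genes with a window. The CHR letters were present in 51.5% of these 66, CCAAT in 66.7%, both motifs in 37.9% and the E2F letters in 27.3%. Of 39 G1/S and DNA replication genes with a window, 15.4% held the CHR letters, 64.1% CCAAT and 56.4% the E2F letters. Motifs can share bases where they adjoin (CCAAT, which reads ATTGG on the opposite strand, with TTGGCGC, for example), and such overlaps were not removed. A match in the letters is a description of the sequence and does not show binding. The 25 genes with CHR letters had a median log2 fold change of -1.45 in KO against WT, and the 10 genes with a window and no such letters had -1.46; the 2 medians were not tested against each other.

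**Figure D1:**
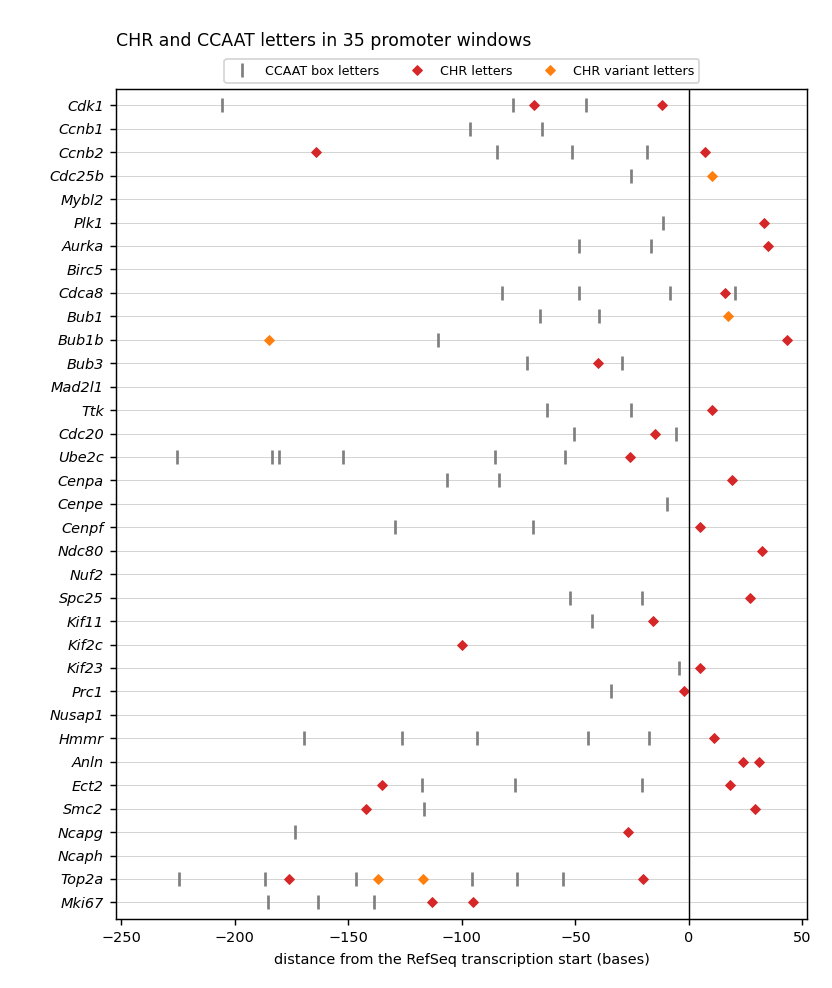
Positions of CHR letters (red), CHR variant letters (orange) and CCAAT boxes (grey bars) in the promoter windows of 35 genes, 1 row per gene, by distance from the RefSeq transcription start in bases; for genes with several windows the one with the lowest coordinate is drawn. Over all windows of these genes the median CHR position is -10 bases and the median CCAAT position -72.5 bases from the start.

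Library totals ran from 24369359 to 40574093 counts, and the genes themselves had 33 to 18307 counts in a library. Summed over the 42 genes, the level was 1230.1, 3494 and 755 CPM in KO replicates 1, 2 and 3, against 4951, 4597 and 4852 CPM in WT replicates 1, 2 and 3. CPM is the count scaled to a common library size, here after TMM scaling, which corrects for composition. KO replicate 1 held 25.6% of the WT mean, KO replicate 2 72.8% and KO replicate 3 15.7%, so the groups did not overlap, while KO replicate 2 stood closer to the WT libraries than to the other KO libraries. It stood apart in the same way gene by gene: KO replicate 2 had the highest level of the 3 KO libraries for all 42 genes. KO replicate 3 had the lowest level for 39 of them, and KO replicate 1 for Bub3, Ube2c and Spc25.

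None of the 42 genes passed the threshold of an adjusted p of 0.05 (edgeR quasi-likelihood test, two-sided, Benjamini-Hochberg over 18621 genes), although all 42 had a lower fitted level in KO tumours, as 51.7% of tested genes did. Of all tested genes, 0.226% were called lower in KO and 11.2% higher, and no gene had an adjusted p below 0.0246. The median log2 fold change of the 42 genes was -1.41, with a range from -1.83 to -0.43, against a median of -0.05 over all tested genes. Adjusted p ran from 0.0656 for Spc25 to 0.325 for Bub3. At an unadjusted p under 0.05, 19 of the 42 genes were lower (9.57% of all tested genes were). With DESeq2, 17 of the 42 genes passed as lower (6.83% of all genes with an adjusted p did), and with no low-count filter in edgeR 12 passed (1.44%). With limma-voom 0 passed as lower (31 of all 18621 tested genes did), although 37 had an unadjusted p under 0.05 (2867 of all tested genes did).

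Counted by libraries, 32 of the 42 genes (76.2%) had every KO library below every WT library, an arrangement that 19.5% of all tested genes showed. KO replicate 1 lay below every WT library for 42 genes, KO replicate 3 for 42 and KO replicate 2 for 32, where 40.0%, 41.7% and 26.6% of all tested genes did. The median level in KO replicates 1, 2 and 3 was 25.3%, 72.0% and 12.2% of the WT mean. The lone library decided the calls: without KO replicate 2, 41 of the 42 genes were called lower (18.5% of 19592 tested genes were) and the median log2 fold change was -2.35. The exception was Bub3, with an adjusted p of 0.187 in that fit. Leaving out any other library called 0 of the 42 genes in edgeR, with 2 to 14 at an unadjusted p under 0.05. Over all 19380 to 19694 genes tested, these fits called 0 to 6 lower, with 365 to 977 lower at an unadjusted p under 0.05. Nothing in the labels sets KO replicate 2 apart. It was the highest KO library for all 42 genes, so leaving it out lowers the KO mean of each. Calls and adjusted p from that fit rest on leaving out a library that stood out in these same genes. They are no separate support for a difference, here and for the single genes below.

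**Figure D2:**
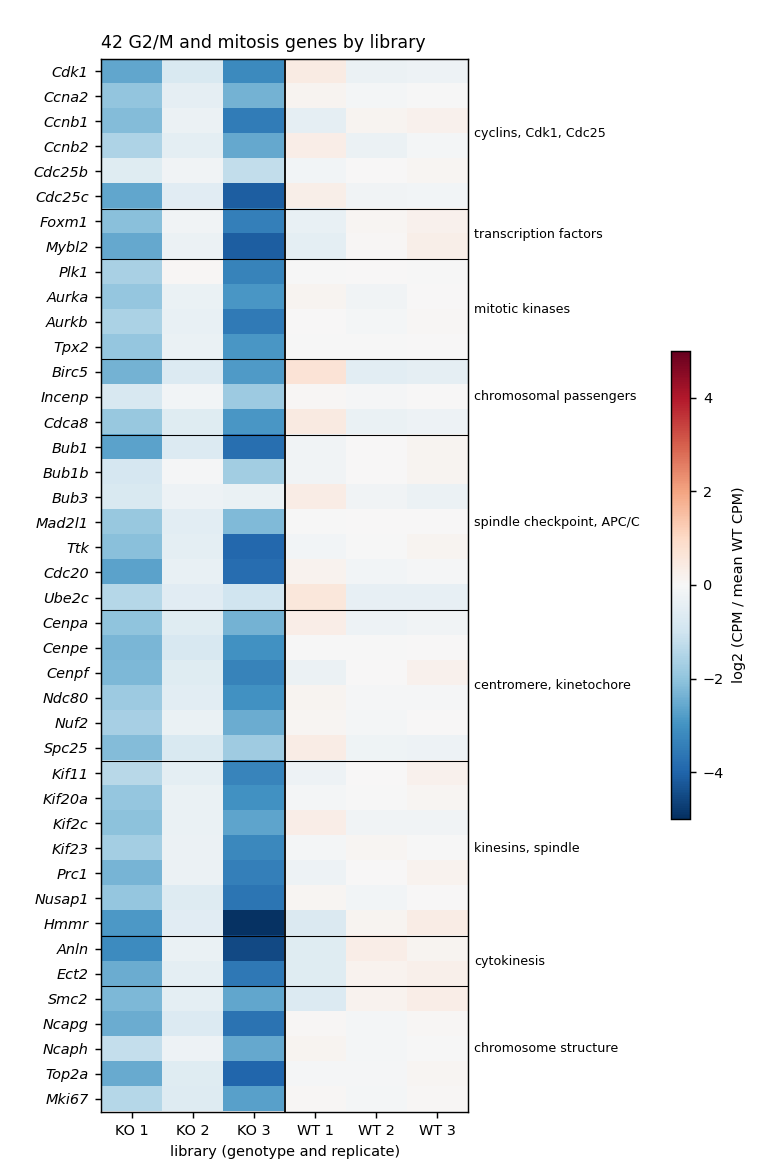
Level of each of the 42 genes in each library as log2 of CPM over the mean WT CPM, in rows grouped by role, with KO libraries on the left and WT libraries on the right. The median gene is at 25.3%, 72.0% and 12.2% of its WT mean in KO replicates 1, 2 and 3, and Bub3, at 79.4% in KO replicate 3, is the palest row of that column.

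Among the cyclins and their kinase, Cdk1, the kinase that starts mitosis, was at 37.4, 133 and 24.8 CPM in KO replicates 1, 2 and 3, against 297, 183 and 189 CPM in WT replicates 1, 2 and 3. All 3 KO libraries lay below the WT libraries, and KO replicate 2 was above the other KO libraries. Its fitted log2 fold change was -1.78 (SE 0.62, adjusted p = 0.104). Ccna2, cyclin A2, which acts in S phase and early mitosis, was at 41.1, 117 and 31.01 CPM in KO libraries, against 176, 148 and 156 CPM in WT libraries, also without overlap. Cyclin B1 (Ccnb1), the main partner of CDK1, was at 20.6, 75.7 and 8.23 CPM in KO libraries, against 67.7, 100.3 and 108 CPM in WT libraries; here KO replicate 2 lay above WT replicate 1, so the groups overlapped. The second B-type cyclin, Ccnb2, was at 20.001, 41.2 and 9.82 CPM in KO libraries, against 73.04, 47.8 and 54.7 CPM in WT libraries, with no overlap. Of the CDC25 phosphatases, which remove the inhibitory phosphates of CDK1, Cdc25c was at 4.73, 19.3 and 1.65 CPM in KO libraries, against 35.2, 25.4 and 26.1 CPM in WT libraries. Cdc25b, at 43.4, 58.8 and 28.2 CPM in KO libraries, against 60.2, 66.9 and 71.4 CPM in WT libraries, had the second smallest difference of the 42 genes, with a log2 fold change of -0.61 (SE 0.31, adjusted p = 0.208). KO replicate 3 retained 42.6% of the WT mean of Cdc25b and 5.69% of that of Cdc25c. Without KO replicate 2 the log2 fold changes of the 6 genes ran from -3.18 to -0.90. All 6 were called lower in that fit (18.5% of all tested genes were).

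The group held 2 transcription factors. Foxm1, which activates the late mitotic genes, was at 30.6, 115 and 12.02 CPM in KO replicates 1, 2 and 3, against 99.1, 139 and 149.8 CPM in WT replicates 1, 2 and 3. Mybl2, the B-MYB subunit that joins MuvB, was at 11.6, 57.02 and 3.94 CPM in KO libraries, against 49.7, 72.4 and 85.2 CPM in WT libraries. For each, KO replicate 2 lay above WT replicate 1, which was itself the lowest WT library, so the groups overlapped. Their log2 fold changes were -1.30 (SE 0.72) and -1.51 (SE 0.83). Without KO replicate 2 they were -2.61 and -3.16, and both genes were called lower (18.5% of all tested genes were). The DREAM and MuvB subunits with which these factors work, and those of NF-Y, made a list of 14 genes, of which 0 were called in either direction, 10 were fitted lower and the median log2 fold change was -0.49. Lin9 and E2f5 were fitted lower (-0.73 and -0.59), and Rbl2, which encodes the p130 protein of the repressive complex, and Nfya were fitted higher (0.86 and 0.78), all 4 short of the threshold at adjusted p from 0.126 to 0.176. Rbl2 was at 84.02, 45.5 and 67.9 CPM in KO libraries, against 24.9, 40.6 and 42.97 CPM in WT libraries. Every KO library thus lay above every WT library, as for 4574 of all 18621 tested genes.

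Of the mitotic kinases, Plk1, the Polo-like kinase of mitotic entry and spindle assembly, was at 23.6, 75.7 and 7.28 CPM in KO replicates 1, 2 and 3, against 72.5, 73.9 and 72.9 CPM in WT replicates 1, 2 and 3. KO replicate 2 lay above the 3 WT libraries while KO replicates 1 and 3 lay below them, and the fitted log2 fold change was -1.04 (SE 0.70, adjusted p = 0.319). Aurka, the kinase of spindle poles, was at 18.3, 55.2 and 9.17 CPM in KO libraries, against 76.5, 61.6 and 69.99 CPM in WT libraries. Aurkb, the kinase of the chromosomal passenger complex, was at 21.8, 50.8 and 5.73 CPM in KO libraries, against 66.5, 61.7 and 68.6 CPM in WT libraries. Tpx2, which binds and activates Aurora A on the spindle, was at 31.5, 94.3 and 16.003 CPM in KO libraries, against 119, 119 and 120.3 CPM in WT libraries. These 3 genes had every KO library below every WT library (19.5% of all tested genes did). Tpx2 averaged 47.2 ± 41.4 CPM in KO tumours and 119 ± 0.755 CPM in WT tumours (SD, n = 3 each). Without KO replicate 2 all 4 genes were called lower (18.5% of all tested genes were).

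The other chromosomal passengers differed from one another. Birc5 (survivin) was at 29.9, 94.2 and 21.3 CPM in KO libraries, against 242, 104 and 110.2 CPM in WT libraries, and Cdca8 (borealin), which binds it, at 25.4, 61.8 and 12.7 CPM in KO libraries, against 129.5, 75.04 and 80.05 CPM in WT libraries. In both, WT replicate 1 lay well above WT replicates 2 and 3. Incenp, the scaffold that holds Aurora B, was at 54.3, 86.4 and 26.9 CPM in KO libraries, against 97.1, 90.02 and 95.3 CPM in WT libraries. Its log2 fold change of -0.75 (SE 0.40, adjusted p = 0.225) was small beside -1.65 for Birc5 and -1.51 for Cdca8. KO replicate 1 retained 57.7% of the WT mean of Incenp, and 19.6% and 26.8% of the WT means of Birc5 and Cdca8. All 3 had every KO library below every WT library (19.5% of all tested genes did).

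The spindle checkpoint genes included the second largest and the smallest difference of the 42. Bub1, a checkpoint kinase of the kinetochore, was at 9.66, 37.5 and 4.44 CPM in KO replicates 1, 2 and 3, against 54.3, 61.4 and 67.2 CPM in WT replicates 1, 2 and 3. On the log2 scale it differed by -1.82 (SE 0.69, adjusted p = 0.123), and without KO replicate 2 it was -3.12 (adjusted p = 0.00185). Bub1b, which encodes the checkpoint protein BUBR1, was at 25.9, 43.9 and 14.01 CPM in KO libraries, against 40.5, 46.6 and 51.4 CPM in WT libraries; it overlapped between groups and had a log2 fold change of -0.72. Bub3, the binding partner of both proteins, was at 74.7, 106 and 100.5 CPM in KO replicates 1, 2 and 3, against 165, 112 and 102 CPM in WT replicates 1, 2 and 3. Here KO replicate 3 stood close to WT replicate 3, the groups overlapped, and the log2 fold change of -0.43 (SE 0.30, adjusted p = 0.325) was the smallest of the 42. Mad2l1, the inhibitor that the checkpoint loads onto CDC20, was at 20.3, 51.8 and 16.2 CPM in KO libraries, against 73.8, 76.9 and 75.4 CPM in WT libraries, with WT libraries within a few CPM of one another. Ttk, the kinase (MPS1) that starts the signal, was at 6.80, 20.8 and 1.89 CPM in KO libraries, against 26.2, 28.7 and 32.3 CPM in WT libraries. Both had every KO library below every WT library (19.5% of all tested genes did).

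The checkpoint holds back CDC20, an activator of the APC/C. Cdc20 was at 33.5, 164 and 15.4 CPM in KO replicates 1, 2 and 3, against 241, 196 and 205 CPM in WT replicates 1, 2 and 3, a log2 fold change of -1.59 (SE 0.77) and, without KO replicate 2, of -3.15 (adjusted p = 0.00197). Ube2c, the ubiquitin-conjugating enzyme of the APC/C, was at 83.5, 151 and 112 CPM in KO libraries, against 337, 168 and 171 CPM in WT libraries. Ube2c was 1 of the 3 genes for which KO replicate 1, not KO replicate 3, was the lowest library, and its log2 fold change was -0.96 (SE 0.39, adjusted p = 0.139). Of 19 other APC/C subunits and regulators, 0 were called, 15 were fitted lower and the median log2 fold change was -0.47. Leading these by p were Ube2s, the second conjugating enzyme (-1.43, adjusted p = 0.0894), and the subunits Cdc16 (-0.67), Anapc11 (-1.07) and Cdc27 (-0.85).

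All 6 genes of the centromere and kinetochore had every KO library below every WT library (19.5% of all tested genes did). Their adjusted p ran from 0.0656 to 0.143. Cenpa, the histone H3 variant that marks centromeres, was at 61.5, 162 and 48.4 CPM in KO replicates 1, 2 and 3, against 316, 205 and 222 CPM in WT replicates 1, 2 and 3. Cenpe, a kinesin that links kinetochores to microtubules, was at 17.96, 50.8 and 10.9 CPM in KO libraries, against 88.5, 87.3 and 89.8 CPM in WT libraries, and the 3 WT libraries were nearly equal. Its log2 fold change was -1.73 (SE 0.53, adjusted p = 0.0750). Cenpf, a large kinetochore protein, was at 17.1, 53.7 and 8.08 CPM in KO libraries, against 66.4, 83.3 and 94.4 CPM in WT libraries. The NDC80 complex binds microtubules end-on, and 3 of its subunits were among the genes. Ndc80 was at 8.20, 20.1 and 3.54 CPM in KO libraries, against 32.1, 27.9 and 27.8 CPM in WT libraries. Nuf2 was at 12.8, 31.8 and 7.33 CPM in KO libraries, against 43.03, 37.4 and 40.98 CPM in WT libraries. Spc25 was at 8.27, 21.99 and 10.7 CPM in KO libraries, against 47.6, 32.05 and 30.9 CPM in WT libraries. Of these, Spc25 came nearest to the threshold, at a log2 fold change of -1.43 (SE 0.42, adjusted p = 0.0656). In KO replicate 3 it retained 28.9% of the WT mean, against 12.1% for Ndc80 and 18.1% for Nuf2, which work in the same complex.

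Among the kinesins and spindle proteins, Hmmr had the most negative fold change of the 42. Hmmr, a microtubule-binding protein of the spindle, was at 11.4, 56.4 and 2.74 CPM in KO replicates 1, 2 and 3, against 50.7, 91.2 and 109 CPM in WT replicates 1, 2 and 3. KO replicate 2 lay above WT replicate 1, so the groups overlapped, and KO replicate 3 held 3.28% of the WT mean, the lowest such share of any of the 42 genes. The log2 fold change was -1.83 with an SE of 0.92, and its adjusted p was 0.201. Kif11, the kinesin that pushes spindle poles apart, was at 22.9, 43.5 and 6.13 CPM in KO libraries, against 50.5, 60.5 and 69.7 CPM in WT libraries. Kif20a and Kif23, kinesins of the central spindle and cytokinesis, were at 28.7, 87.5 and 13.4 CPM in KO libraries, against 103, 107 and 118 CPM in WT libraries for Kif20a and 18.7, 50.1 and 6.53 CPM in KO libraries, against 57.7, 65.8 and 59.9 CPM in WT libraries for Kif23. Kif2c, which takes microtubules apart at centromeres, was at 15.8, 51.8 and 10.4 CPM in KO libraries, against 80.4, 56.9 and 56.7 CPM in WT libraries. Prc1, which bundles the microtubules of the central spindle, was at 35.1, 142 and 16.2 CPM in KO libraries, against 145, 178 and 198 CPM in WT libraries, and Nusap1, another spindle-binding protein, at 15.5, 37.5 and 4.64 CPM in KO libraries, against 62.9, 53.6 and 60.02 CPM in WT libraries. Other than Hmmr, none of the 7 had overlapping groups (19.5% of all tested genes had every KO library below every WT library). The log2 fold changes of the 7 lay between -1.83 and -1.28. Without KO replicate 2 all 7 were called lower (18.5% of all tested genes were).

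Of the genes of cytokinesis, Anln, which encodes the scaffold anillin of the contractile ring, was at 37.5, 265 and 14.4 CPM in KO replicates 1, 2 and 3, against 219, 412 and 363 CPM in WT replicates 1, 2 and 3. KO replicates 1 and 3 held 11.3% and 4.33% of the WT mean and KO replicate 2 held 80.1%. The fitted log2 fold change was -1.65 with an SE of 0.94, the largest SE of the 42 genes, and without KO replicate 2 it was -3.69 (SE 0.55, adjusted p = 0.00297). Ect2, the exchange factor that activates RhoA at the division plane, was at 11.6, 45.9 and 5.43 CPM in KO libraries, against 42.5, 73.04 and 76.1 CPM in WT libraries. In both genes WT replicate 1 was the lowest WT library and lay below KO replicate 2.

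The last group organises chromosomes. Top2a, the topoisomerase that untangles sister chromatids, was at 88.9, 334 and 32.2 CPM in KO replicates 1, 2 and 3, against 490.2, 491 and 545 CPM in WT replicates 1, 2 and 3. All KO libraries lay below the WT libraries, at 17.5%, 65.6% and 6.32% of the WT mean, and its fitted log2 fold change was -1.75 (SE 0.75, adjusted p = 0.155). Mki67, the Ki-67 protein that coats mitotic chromosomes and is the common marker of dividing cells, was at 89.4, 155 and 36.9 CPM in KO replicates 1, 2 and 3, against 248, 223 and 250.4 CPM in WT replicates 1, 2 and 3. Mki67 had a log2 fold change of -1.36 (SE 0.49, adjusted p = 0.108). Of the condensin genes, Smc2, a subunit of both condensins, was at 25.6, 86.02 and 20.4 CPM in KO libraries, against 76.9, 137 and 152 CPM in WT libraries, with KO replicate 2 above WT replicate 1. Ncapg and Ncaph, subunits of condensin I, were at 13.8, 47.5 and 5.88 CPM in KO libraries, against 78.8, 71.4 and 79.4 CPM in WT libraries for Ncapg and 20.9, 40.6 and 8.08 CPM in KO libraries, against 52.2, 44.5 and 47.3 CPM in WT libraries for Ncaph, without overlap. Over all tested genes, 19.5% had every KO library below every WT library. Without KO replicate 2 all 5 genes were called lower (18.5% of all tested genes were).

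**Figure D3:**
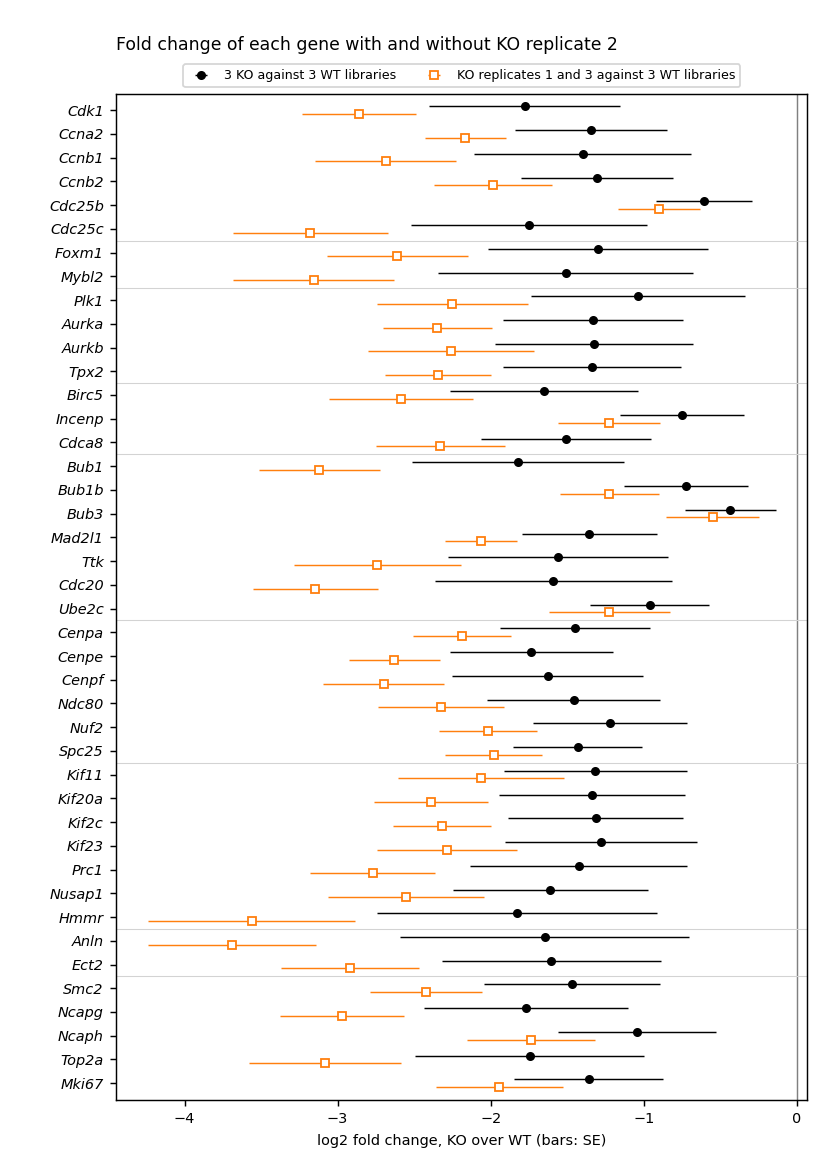
Log2 fold change of KO over WT for each of the 42 genes with its standard error, from all 6 libraries (black) and without KO replicate 2 (orange). All 42 estimates lie below 0 in both fits, from -1.83 to -0.43 with all libraries. Of them 41 passed the threshold only in the second fit, where 18.5% of all tested genes were called lower. That fit leaves out the library that was the highest KO library for all 42 genes.

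Strand was not marked in these libraries, and 13 of the 42 genes share exon bases with another gene, in most cases on the opposite strand. The longest shared stretches were 3696 bases of Prc1 with Rccd1, 3583 bases of Ncapg with Lcorl and 2815 bases of Kif20a with Cdc23, for which reads of the 2 genes cannot be told apart. The other 29 genes share none. By role, the median log2 fold change ran from -1.63 for cytokinesis to -1.33 for the mitotic kinases.

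Levels of different genes are compared here as TPM, the count divided by the length of all exons of the gene merged and scaled to a common total. That length was 2600 bases for Ube2c and 1868 for Cdc20, whose transcripts have 967 and 1793 bases. The order of genes given here depends on the length used. Cdc20 had the highest mean level in WT tumours, at 117 ± 146 TPM in KO tumours and 335 ± 63.2 TPM in WT tumours (SD, n = 3 each). Ube2c followed at 121 ± 57.97 TPM in KO tumours and 237 ± 22.6 TPM in WT tumours (SD, n = 3 each), and then Top2a at 51.3 ± 59.8 TPM in KO tumours and 169 ± 51.8 TPM in WT tumours (SD, n = 3 each). The lowest was Ndc80, at 4.85 ± 4.59 TPM in KO tumours and 13.2 ± 2.73 TPM in WT tumours (SD, n = 3 each). The median of the 42 gene means was 23.8 TPM in KO and 52.5 TPM in WT tumours. In KO tumours the means of Ube2c and Cdc20 differed by less than their SD.

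Genes of the same processes outside the 42 were also at lower fitted levels. Of 80 other mitosis genes, chosen by name, 79 were fitted lower, 57 had every KO library below every WT library and 0 were called, at a median log2 fold change of -1.34. Over all tested genes these shares were 51.7%, 19.5% and, for calls as lower, 0.226%. Leading by p were the centromere genes Cenpi (-1.52, adjusted p = 0.0723), Cenpq (-1.34) and Cenpw (-2.25) and the spindle gene Knstrn (-1.43). Cenpw was at 5.37, 20.99 and 3.84 CPM in KO libraries, against 76.5, 31.1 and 36.5 CPM in WT libraries. Without KO replicate 2, 72 of the 80 were called lower (18.5% of all tested genes were). The level of the 80 genes together was 1601, 3497 and 1134 CPM in KO replicates 1, 2 and 3, against 4878, 4257 and 4496 CPM in WT replicates 1, 2 and 3.

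The G1/S and DNA replication genes, which act before the 42 in the cycle, were the nearest comparison. Of 50 such genes 47 were fitted lower and 0 were called, at a median log2 fold change of -1.18. In 39 of them every KO library lay below every WT library (19.5% of all tested genes). By p the first were Rfc4, a subunit of the clamp loader (-1.54, adjusted p = 0.0577), Ccne2 (cyclin E2, -1.45), Orc6 of the origin recognition complex (-1.38) and Gmnn, which encodes the replication inhibitor geminin (-1.49). Their summed level was 1555, 3104 and 1517 CPM in KO replicates 1, 2 and 3, against 4577, 3671 and 3829 CPM in WT replicates 1, 2 and 3. Summed CPM of the 42 genes over that of the 50 was 0.791, 1.13 and 0.498 in KO replicates 1, 2 and 3, against 1.08, 1.25 and 1.27 in WT replicates 1, 2 and 3. KO replicates 1 and 3 lay below the WT range and KO replicate 2 within it. Whether the 2 groups of genes differ was not tested.

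Of 13 cell cycle inhibitors and related genes 1 was called, higher in KO, and the median log2 fold change was -0.02: Cdkn1c (p57), an imprinted CDK inhibitor, was at 195, 27.1 and 180.1 CPM in KO libraries, against 5.03, 5.47 and 3.57 CPM in WT libraries, with a log2 fold change of 4.83 (SE 0.74, adjusted p = 0.0246). Cdkn1a (p21), the p53 target, was at 162, 198 and 129.8 CPM in KO libraries, against 166, 199 and 159.7 CPM in WT libraries, with overlapping groups and a log2 fold change of -0.10 (adjusted p = 0.823). Without KO replicate 3 its log2 fold change was 0.018. Cdkn1b (p27) and Rb1, the retinoblastoma gene, had log2 fold changes of 0.82 and 0.98, and Ccng1, a p53 target, had 1.24; none passed, at adjusted p = 0.110, 0.0863 and 0.0520. Cdkn2a, which encodes p16 and ARF and is given here after its values were seen, was at 25.4, 128 and 14.7 CPM in KO libraries, against 481, 181 and 170.4 CPM in WT libraries. It was also highest of the KO libraries in KO replicate 2 and lowest in KO replicate 3, and it did not pass (log2 fold change -2.30, adjusted p = 0.114).

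Markers of 8 other cell types were counted in the same libraries. In KO, 8 of 10 T cell markers were called higher, 9 of 10 macrophage markers, 5 of 6 endothelial, 6 of 6 fibroblast, 5 of 6 skeletal muscle and 1 of 6 adipocyte markers. The share called higher over all tested genes was 11.2%. Of the 6 B and plasma cell markers 5 could be tested and 3 were called higher, and of the 6 neutrophil markers 3 could be tested and 2 were called higher. These calls, and that of Cdkn1c, depend on the libraries used: without KO replicate 1 or any 1 WT library, edgeR called 0 genes of the whole table higher, with 3096 to 3982 at an unadjusted p under 0.05. Summed macrophage markers ran from 3351 to 13707 CPM in KO, against 1484 to 2396 CPM in WT. Summed fibroblast markers ran from 12215 to 38319 CPM in KO, against 2243 to 3597 CPM in WT. For T cell markers the sums were 221 to 699 CPM in KO, against 84.5 to 133 CPM in WT. Every KO sum thus lay above every WT sum in these 3 lists. Endothelial sums were 282 to 847 CPM in KO, against 52.8 to 89.2 CPM in WT, and muscle sums 287 to 2101 CPM in KO, against 87.3 to 189.9 CPM in WT. B and plasma cell sums were 28.6 to 257 CPM in KO, against 3.65 to 9.65 CPM in WT. Neutrophil sums were 72.3 to 263 CPM in KO, against 16.6 to 20.2 CPM in WT, and adipocyte sums 45.5 to 859 CPM in KO, against 10.9 to 27.3 CPM in WT. Every KO sum lay above every WT sum in these 5 lists too, and in all 8 lists KO replicate 2 had the lowest KO sum. Counted as single genes, 4574 of all 18621 tested had every KO library above every WT library. Sums of the adipocyte and neutrophil lists rest on few genes. Fabp4, which other cells also express, made up 97.6 of the 102 CPM of adipocyte markers in KO replicate 1, and the median adipocyte marker there lay -0.49 from its WT mean on the log2 scale. Csf3r and Mmp9 made up 146 and 35.3 of the 182 CPM of neutrophil markers in KO replicate 1, where S100a8, a defining neutrophil marker, was at 0.238 CPM, against 0.902, 0.370 and 0.327 CPM in WT replicates 1, 2 and 3. In KO replicates 2 and 3, S100a8 was at 0.968 and 36.1 CPM. S100a9, also a defining neutrophil marker, was at 0.102, 0.826 and 42.1 CPM in KO replicates 1, 2 and 3, against at most 0.328 CPM in WT. Cxcr2 was at 0.102, 0.342 and 11.8 CPM in KO replicates 1, 2 and 3, against at most 0.114 CPM in WT. Ly6g, a defining neutrophil marker, had 0 counts in every KO library and at most 1 count in a WT library. The B cell marker Ms4a1 was at 0 counts in WT replicate 1, and Cxcr2 of neutrophils and Lep of adipocytes in WT replicate 3. The part of these cells in the lower level of the mitotic genes was not tested.

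The labelled cell type, mouse glioblastoma, was checked with 12 neural and glial markers, of which 3 were called lower in KO (Slc1a3, Cspg5 and Cntn1) and all 12 were fitted lower. Over all tested genes, 0.226% were called lower and 51.7% were fitted lower. Without KO replicate 2, 11 of the 12 markers were called lower (18.5% of all tested genes were). Without any other single library edgeR called 0 of the 12 markers, with 3 or 4 at an unadjusted p under 0.05. Their summed level, most of which is Vim, a gene that stromal cells also express, ran from 1594 to 3776 CPM in KO and from 4669 to 6299 CPM in WT. Sox2, a transcription factor of neural progenitors, was at 18.6, 147 and 4.74 CPM in KO libraries, against 205, 228 and 227 CPM in WT libraries, and Olig2, a factor of the oligodendrocyte lineage, at 9.66, 96.4 and 3.99 CPM in KO libraries, against 168, 131 and 141 CPM in WT libraries. Gfap, the astrocyte filament, was at 1.12, 6.86 and 0 CPM in KO libraries, against 7.16, 9.34 and 9.79 CPM in WT libraries, and at 0 counts in KO replicate 3. In KO replicates 1, 2 and 3 the median neural or glial marker lay -3.73, -0.74 and -4.10 from its WT mean on the log2 CPM scale, while the median mitotic gene lay -1.97, -0.45 and -3.02 from it. Both lists thus placed KO replicate 2 nearest to WT, and the part of the tumour cell share in this was not tested.

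**Figure D4:**
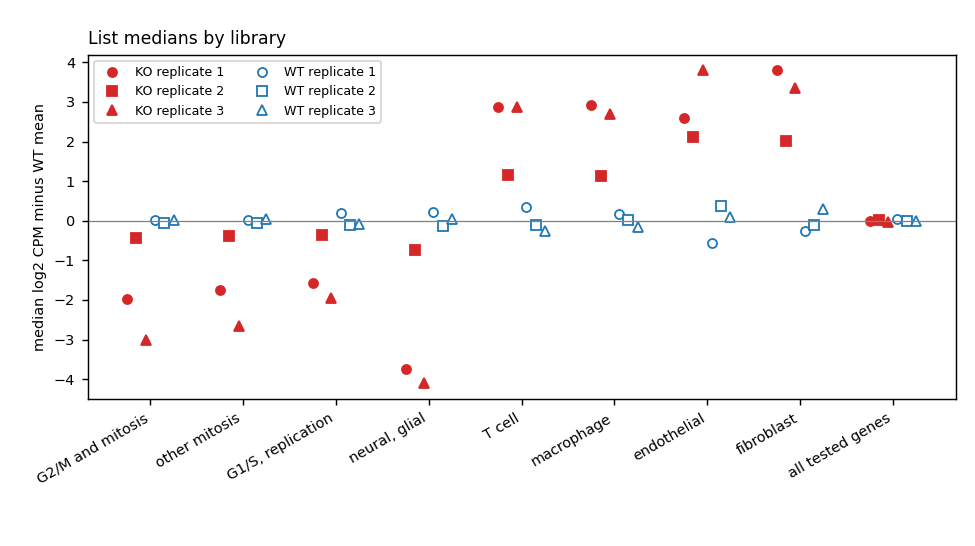
Median over the genes of each list of log2 CPM minus the WT mean of that gene, with 1 point per library, KO libraries filled and WT libraries open. In the G2/M and mitosis, other mitosis, replication and neural lists the 3 KO libraries lie below the WT libraries, in the T cell, macrophage, endothelial and fibroblast lists above them, and in each of these 8 lists KO replicate 2 is the KO library nearest to 0.

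WT replicate 1 also stood apart from the other WT libraries. Among the 42 genes it was the highest WT library for 18 and not for 24. On the log2 scale, WT replicate 1 exceeded the mean of WT replicates 2 and 3 by 1.17 for Birc5, by 0.99 for Ube2c and by 0.74 for Cdca8, whose transcripts of 947, 967 and 1264 bases are the shortest. The most negative differences were those of Hmmr, Smc2 and Anln, with transcripts of 3892, 5404 and 4605 bases, at -0.98, -0.91 and -0.82. The longest transcripts did not have the most negative differences: Cenpf (11130 bases) was at -0.42, Mki67 (10061 bases) at 0.07 and Mad2l1 (7557 bases) at -0.04. Across the 42 genes the difference correlated with log10 transcript length at Pearson's r = -0.63 and Spearman's rho = -0.67, and across 14726 tested coding genes at -0.49 and -0.58. The difference of KO replicate 2 from the mean of WT replicates 2 and 3 also correlated with length across the 42 genes, at r = -0.58 and rho = -0.62, against -0.08 and -0.10 across the 14726 genes. These are correlations across genes, which are not independent replicates and share the same libraries. The part of transcript length in the difference between KO and WT was not tested. Without WT replicate 1 the median log2 fold change of the 42 genes was -1.38 and 0 were called, and the log2 fold change of Bub3 was -0.21 and that of Hmmr -2.09 in that fit.

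**Figure D5:**
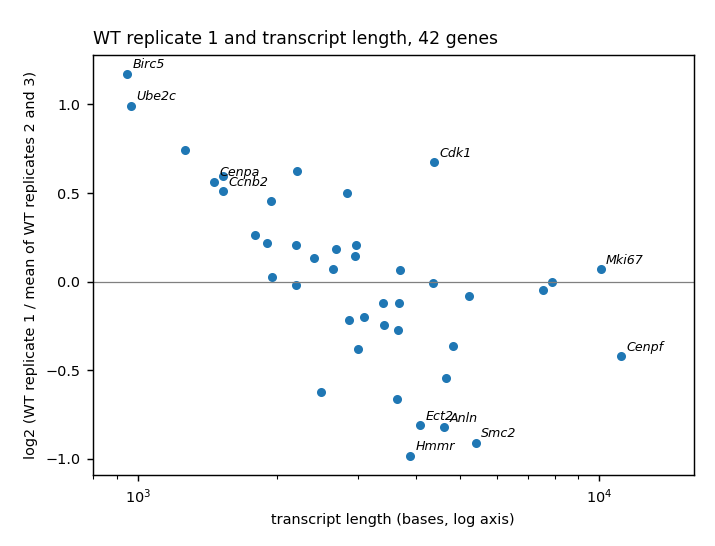
Difference between WT replicate 1 and the mean of WT replicates 2 and 3 (log2 ratio of CPM) for each of the 42 genes against the length of its transcript (log axis). Birc5 and Ube2c, among the shortest, lie at 1.17 and 0.99, and Hmmr and Smc2 at -0.98 and -0.91.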

How the data were processed

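The authors deposited 1 table of read counts per gene, unnormalised whole numbers for 6 libraries, per the file headers, with gene symbols as identifiers. The labels' protocols describe Smart-seq2 libraries, a method that does not mark strand. The submitters' processing notes name mm10 and DESeq2; which aligner and counter were run is not given in the sources used here. All 6 count columns were used. The 18621 genes that passed edgeR's filter on low counts held 99.9% of counts. KO and WT were compared with edgeR 4.0.16 (R 4.3.3; TMM scaling, quasi-likelihood F test, Benjamini-Hochberg adjustment over all tested genes, threshold 0.05), and log2 CPM used a prior count of 2. DESeq2 1.42.0, limma 3.58.1, other scalings and filters, and fits without each library were alternatives, 13 in all. The edgeR script was tested on simulated counts. It recovered 44 of 95 genes changed 4-fold (46.3%) and 95 of 99 changed 16-fold, with 3 false calls. Replicate numbers follow accession order and only name libraries. The closest pair, WT replicates 2 and 3, differed by more than sampling noise.

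Gene positions and merged exon lengths came with the deposited counts, and promoter windows from RefSeq. Gene identifiers and transcript lengths came from GENCODE M21, where all 42 genes matched by symbol and position. The text gives every gene of the 42. Of each other pathway list it names the 4 genes with the smallest p, with Cdkn1a and the 6 genes most like the 42 by Pearson's r. Marker lists are given by counts and sums. Cdkn2a and the markers named singly (called neural markers, defining markers, those at 0 counts and those that carry a sum) were chosen after their values were seen. The genes and lists were chosen with earlier results of these data known.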

Additional observations from a re-analysis of the deposited data

How the results depend on the processing

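All 42 genes kept a negative log2 fold change under all 13 alternatives. The number called lower was 0 except with no low-count filter (12), with DESeq2 (17) and when single libraries were left out, where it ran from 0 to 41. In the same settings the other mitosis genes gave 18, 26 and a range from 0 to 72, and the G1/S and DNA replication genes 13, 18 and a range from 0 to 43. Of the neural and glial markers 3 were called lower, against 1 with no composition scaling, 5 with no low-count filter, 6 with DESeq2 and 0 to 11 without single libraries. Over all genes, 2083 were called higher, against 3266 with DESeq2, 988 with limma-voom and 0 to 4449 without single libraries. Over all genes, 42 were called lower, against 24 with no composition scaling, 476 with no low-count filter, 1244 with DESeq2 and 0 to 3629 without single libraries. The upper end of each range is the fit without KO replicate 2; the cause was not tested. The log2 ratio of the summed level, KO over WT, was -1.39, and -2.27 to -1.02 without single libraries. The log2 fold change of Cdkn1a, -0.10, ran from -0.28 to 0.018 without single libraries, the last being without KO replicate 3. With 3 libraries a group, 1 library decides these calls. No paired analysis was run because the labels name no pairing of KO with WT libraries.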

Other observations

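The 6 genes outside the 42 whose log2 CPM most resembled the mean of the 42 over the 6 libraries were Hsf1, Prss12, Krt16, Mcm10, Asf1b and Supv3l1, with Pearson's r of at least 0.999; r was used only to rank genes and carries no test. Mcm10, a DNA replication factor, was at 10.6, 41.4 and 3.54 CPM in KO libraries, against 63.0, 58.1 and 60.8 CPM in WT libraries. Asf1b, a histone chaperone, was at 10.6, 21.6 and 6.33 CPM in KO libraries, against 28.7, 26.6 and 29.2 CPM in WT libraries. Hsf1, the heat shock transcription factor, was at 44.9, 73.2 and 32.2 CPM in KO libraries, against 83.7, 80.1 and 83.4 CPM in WT libraries. In all 3 genes KO replicate 2 was the highest KO library and KO replicate 3 the lowest, and none passed the threshold, at edgeR adjusted p = 0.162 for Mcm10, 0.131 for Asf1b and 0.174 for Hsf1.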
